A study of Mus musculus with 24 samples.

Results

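The 35 genes described here encode proteins that carry a cell through mitosis, from cyclins and entry kinases to spindle motors and the cytokinesis machinery. They were taken by symbol, as a fixed list of mitosis and spindle genes, from the 16996 genes with normalized expression values, and all 35 were measured, each by 1 entry. The data are RNA-seq of CD45+ cells that magnetic beads had enriched from EMT6-hHER2 tumors, with 1 library per mouse and 24 mice. EMT6-hHER2 is a single-cell clone of the murine breast cancer line EMT6 that carries a transposon with human HER2. All 24 mice were wild-type female Balb/c animals of 10 to 12 weeks with tumor cells injected in the mammary fat pad. At a tumor volume of 80 mm3, 6 mice were left untreated, with no vehicle. The other mice, 6 per drug, were given trastuzumab at 20, T-DM1 at 15 or T-PNU at 1 mg/kg, once and into a vein. Tumors were taken on day 10. By the study's methods, T-PNU tumors were then smaller than at treatment. The study reports that trastuzumab and T-DM1 did not prevent growth in this model, so tumor size at harvest may differ between groups. Volumes at harvest are not given by sample. Trastuzumab is an antibody against human HER2, T-DM1 is trastuzumab coupled to the maytansinoid DM1, which blocks microtubule polymerization, and T-PNU is trastuzumab coupled to an anthracycline. The comparison of T-DM1 with the other groups asks how mitotic transcripts of the tumor-infiltrating cells stood under a microtubule payload.

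In dividing cells the RNAs of these genes rise together late in the cycle and are low in resting cells, so their level in a tissue is widely read as a measure of how many cells are cycling. Cyclin B with Cdk1 starts mitosis, the Aurora and Polo kinases build the spindle, kinetochore proteins tie chromosomes to microtubules, and the spindle checkpoint holds Cdc20 and the anaphase promoting complex back until every chromosome is attached. Agents that block microtubules arrest dividing cells at that checkpoint. In bulk RNA, fewer cycling cells and less of these RNAs per cell cannot be told apart.

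Many promoters of this class are known to hold a CHR element, which the DREAM and MuvB complexes bind, and CCAAT boxes, which NF-Y binds. RefSeq promoter windows on GRCm38.p6, from 250 bases before to 50 bases after the annotated start, were found for 29 of the 35 genes. The CHR letters TTTGAA were present on either strand in 23 of the 29 (79.3%), against 20.2% of the 27025 genes with a window. CCAAT was present on either strand in 22 of the 29 (75.9%), against 41.1% of all genes, and both motifs stood in 1 window in 19 of the 29 (65.5%), against 8.0% of all. The motifs shared letters in 1 of the 31 windows of these 29 genes, and a match is a description of the letters, not of a bound site. The 100 bases before the start are shown for the 7 genes in which a CHR lies wholly in this stretch, to show such sites, and for Cenpa, whose RNA did not follow the others. Of the 7, Kif15 and Mki67 have no CCAAT letters in this stretch, and over all windows 17 of the 32 CHR matches lay after the start. CHR and CCAAT letters, or their reverse complements TTCAAA and ATTGG, are in capitals, and each sequence runs 5′ to 3′ on the strand of its gene.
Cdc20 (chr4:118437344-118437443, minus strand): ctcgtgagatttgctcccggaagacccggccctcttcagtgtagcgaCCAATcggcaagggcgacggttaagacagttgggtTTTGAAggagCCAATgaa
Cdk1 (chr10:69352913-69353012, minus strand): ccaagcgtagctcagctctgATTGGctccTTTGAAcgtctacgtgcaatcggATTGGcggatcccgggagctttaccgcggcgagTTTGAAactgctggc
Prc1 (chr7:80294376-80294475, plus strand): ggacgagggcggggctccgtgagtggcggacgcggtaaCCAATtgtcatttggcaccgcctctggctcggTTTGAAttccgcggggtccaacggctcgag
Ube2c (chr2:164769829-164769928, plus strand): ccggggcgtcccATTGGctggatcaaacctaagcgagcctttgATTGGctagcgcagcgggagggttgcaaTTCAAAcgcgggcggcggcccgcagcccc
Kif11 (chr19:37376282-37376381, plus strand): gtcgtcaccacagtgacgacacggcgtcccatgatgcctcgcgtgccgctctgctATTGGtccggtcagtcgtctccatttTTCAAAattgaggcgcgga
Kif15 (chr9:122950981-122951080, plus strand): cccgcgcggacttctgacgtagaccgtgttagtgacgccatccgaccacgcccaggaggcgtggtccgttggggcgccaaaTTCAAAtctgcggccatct
Mki67 (chr7:135716380-135716479, minus strand): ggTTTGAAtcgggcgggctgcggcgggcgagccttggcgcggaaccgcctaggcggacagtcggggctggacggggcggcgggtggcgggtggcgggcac
Cenpa (chr5:30666786-30666885, plus strand): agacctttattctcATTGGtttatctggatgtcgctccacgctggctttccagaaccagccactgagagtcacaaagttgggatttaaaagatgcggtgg
In Cdc20 the CHR started 18 bases before the annotated start, between 2 CCAAT boxes, and Cdk1 held 2 CHR elements at 71 and 15 bases before it. Cenpa had a CCAAT box but no CHR in this stretch, and its CHR lay 16 bases after the start. This is not particular to Cenpa: of the 23 genes with CHR letters, 13 had them only after the start, among them Bub1b and Plk1. Before and after depend on the start used, here that of RefSeq. In GENCODE the genes Cenpa (30666777), Ube2c (164769898), Kif15 (122951046), Cdk1 (69352938), Cdc20 (118437352) and Prc1 (80294450) start further upstream. Kif11 (37376403) and Mki67 (135716361) start further downstream. From the GENCODE starts, the printed CHR letters of Ube2c and Kif15 and the nearer CHR of Cdk1 lie after the start. Prc1 has another RefSeq start, and from it the CHR begins at -5 and runs across the start.

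Markers of leukocytes and of other cells were both high. Ptprc, which encodes CD45, ran from 14.0 to 15.5 on the normalized log2 scale, and its mean stood at the 99.1 percentile of all genes, while the keratin gene Krt8 and the collagen gene Col1a1 were at the 95.6 and 96.1 percentiles. The study's methods state that flow cytometry of the enriched cells showed few CD45-negative cells. The share of the mitotic RNA that came from such cells was not tested. Numbers in the column headings, whose meaning the labels do not state, form 3 separate runs. These are for untreated mice, for T-PNU mice, and for trastuzumab and T-DM1 mice together. Every comparison but that of T-DM1 with trastuzumab crosses these runs of numbers. Whether the runs mark a batch is not known, and in those comparisons the run and the treatment cannot be told apart. A linear model (limma) over the 24 samples and 4 groups tested every gene, and a gene was called when its p adjusted over all 16996 genes was under 0.05. The study's heatmaps label 20 of the samples. The 4 others are B1 and C1 of the untreated and B3 and E2 of the trastuzumab group. Values from the 20 labelled samples are given where they change a result.

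The 35 genes moved largely as a block from mouse to mouse. For 26 of the 35 the highest of the 24 values was in untreated sample A1, and for 32 of the 35 the lowest was in T-PNU sample C2. The level of the list, the mean difference of its genes from their own averages over the 24 samples on the log2 scale, ran in untreated mice from -0.03 through a median of 0.25 to 0.53. It ran from -0.36 through 0.11 to 0.32 under trastuzumab, from -0.18 through 0.01 to 0.16 under T-DM1, and from -0.88 through -0.28 to 0.16 under T-PNU. The T-DM1 values overlapped with those of the other 3 groups and had the narrowest spread (SD 0.12, n = 6), against 0.38 for T-PNU. Within T-PNU, samples G1 (0.159) and A2 (0.087) lay above 0 and D2, B2, H1 and C2 at -0.263 or below. Of these, H1 and C2 were below every sample of the other groups, the lowest of which was trastuzumab E2 (-0.356). The lowest untreated levels were those of B1 (-0.027) and C1 (-0.015), and the lowest trastuzumab levels those of E2 and B3 (-0.076). These are the 4 samples outside the heatmaps, so the 20-sample values leave out the lowest levels of both groups.

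**Figure D1:**
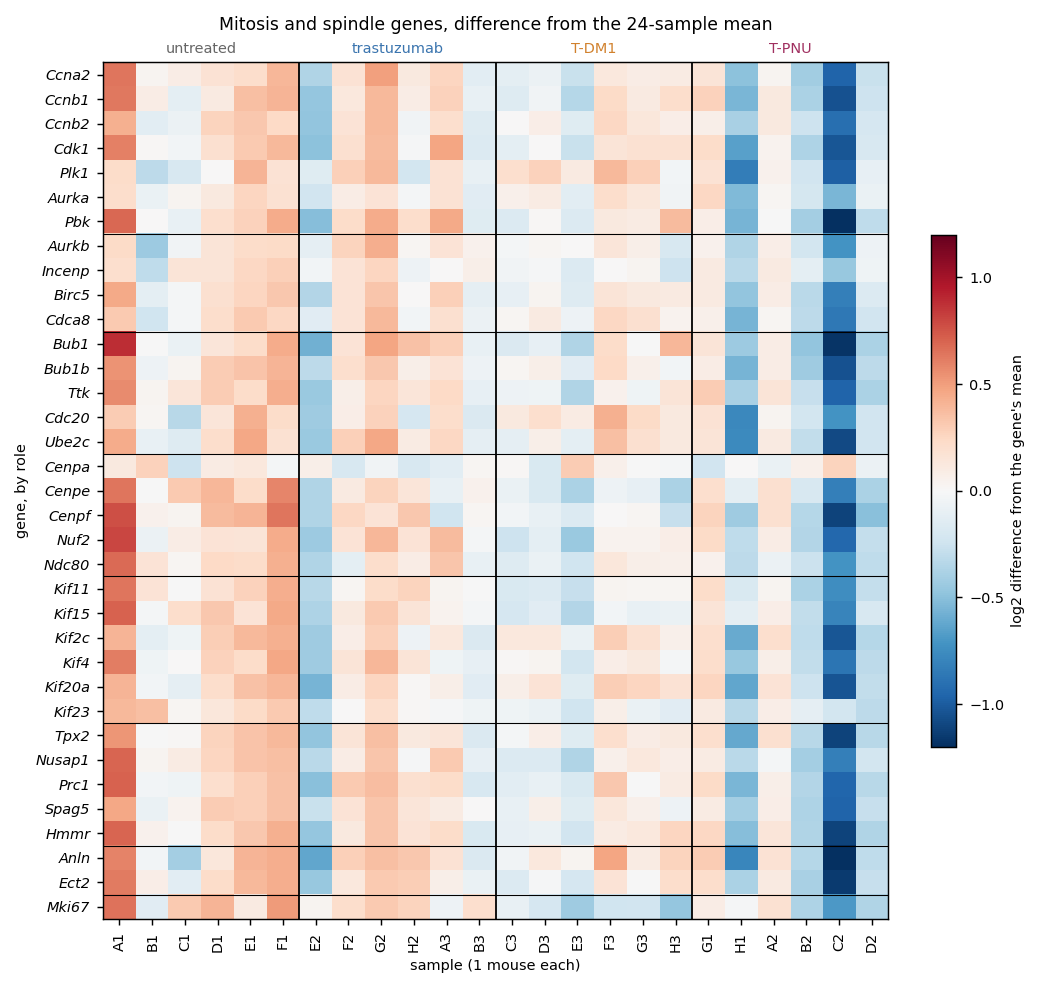
Difference of each of the 35 genes from its mean over the 24 samples (colour, log2 scale; red higher, blue lower), with genes in lines ordered by role and samples in columns ordered by group. Untreated A1 holds the highest value for 26 of the 35 genes and T-PNU C2 the lowest for 32, and the line of Cenpa does not follow the others.

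The likeness of a gene to the rest was described by the correlation of its values with the mean of the other 34 over the 24 samples, which share the libraries and the list and are given with no test. It was 0.99 for Bub1b, a checkpoint kinase of the BubR1 type, and for Tpx2, which activates Aurora A on the spindle. It was 0.69 for Mki67, 0.78 for the midzone kinesin Kif23 and 0.79 for Plk1, and lay between these values for the others except one. Cenpa, the histone variant that marks centromeres, had a correlation of -0.32, and of -0.34 over the 20 samples. Its values ran from 11.16 through a median of 11.52 to 11.69 in untreated mice, from 11.22 through 11.33 to 11.48 under trastuzumab, from 11.23 through 11.42 to 11.72 under T-DM1 and from 11.18 through 11.38 to 11.68 under T-PNU. The 4 groups overlapped, and T-PNU sample C2, the lowest for 32 other genes, held the highest T-PNU value of Cenpa.

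Under T-DM1, 3 of the 35 genes were called lower than in untreated mice and 0 higher, and the median log2 fold change was -0.23, against -0.02 over all 16996 genes. The 3 were Mki67, Cenpe and Kif23. Of all genes, 2.15% were called lower in this comparison, and 3 of 35 is 8.57%. At an unadjusted p under 0.05, 9 of the 35 (25.7%) were lower, against 10.9% of all genes. Over the 20 samples 4 were called lower, with the mitotic kinesin Kif15 added, against 1.1% of all genes. Kif15 was just outside over the 24 samples, with a log2 fold change of -0.45 ± 0.137 (SE) and an adjusted p of 0.0503 by limma.

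Mki67 encodes Ki-67, which coats the surface of mitotic chromosomes and is the usual protein marker of proliferation. The gene lies on the minus strand of chromosome 7 (GRCm38, chr7:135689784-135716361). Its normalized log2 values ran from 12.79 through a median of 13.29 to 13.57 in untreated mice, from 12.86 through 13.13 to 13.24 under trastuzumab, from 12.46 through 12.68 to 12.83 under T-DM1 and from 12.23 through 12.74 to 13.11 under T-PNU. The T-DM1 values lay below all trastuzumab values and below all untreated values but that of B1. The log2 fold change of T-DM1 against untreated was -0.59 ± 0.135 (SE), or 0.666 times the untreated level, with an adjusted p of 0.0147 by limma and an exact two-sided permutation p of 0.00433 (n = 6 and 6). Against trastuzumab it was -0.44 ± 0.135 with an adjusted p of 0.127, and the exact permutation p of 0.00216 is the smallest that 6 against 6 can give. Mki67 kept its call against untreated mice in 34 of 35 alternative analyses. It lost the call only at a false discovery rate of 0.01 with a fold of 2, where its adjusted p and its fold each missed the limit.

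Cenpe encodes a kinesin of the kinetochore that brings chromosomes to the spindle equator. It lies on the plus strand (chr3:135212537-135273611). Its values ran from 10.26 through 10.63 to 10.91 in untreated mice and from 9.886 through 10.13 to 10.21 under T-DM1, so these 2 groups did not overlap, while trastuzumab (9.91 through 10.35 to 10.54) and T-PNU (9.449 through 10.11 to 10.47) overlapped with both. The log2 fold change of T-DM1 against untreated was -0.55 ± 0.145 (SE) with an adjusted p of 0.0268 by limma. Of the 35 genes, Cenpe, Kif15 and the kinetochore protein gene Cenpf had 6 T-DM1 values below all 6 untreated values, which is 8.57%, and 1.28% of all genes had this separation. Cenpf was lower by 0.47 on the log2 scale with an adjusted p of 0.116 by limma.

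Kif23 encodes a kinesin of the central spindle that is needed for the last step of division (minus strand, chr9:61915905-61946774). Its values ran from 10.76 through 11.0 to 11.12 in untreated mice, from 10.43 through 10.73 to 10.93 under trastuzumab, from 10.49 through 10.65 to 10.8 under T-DM1 and from 10.4 through 10.56 to 10.84 under T-PNU. Only the highest T-DM1 value, that of F3, reached into the untreated range. The log2 fold change of T-DM1 against untreated was -0.33 ± 0.088 (SE) with an adjusted p of 0.0302 by limma. Without untreated A1 or F1, or without T-DM1 D3 or E3, Mki67 was the 1 gene called, and without untreated B1 Kif23 was not called.

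**Figure D2:**
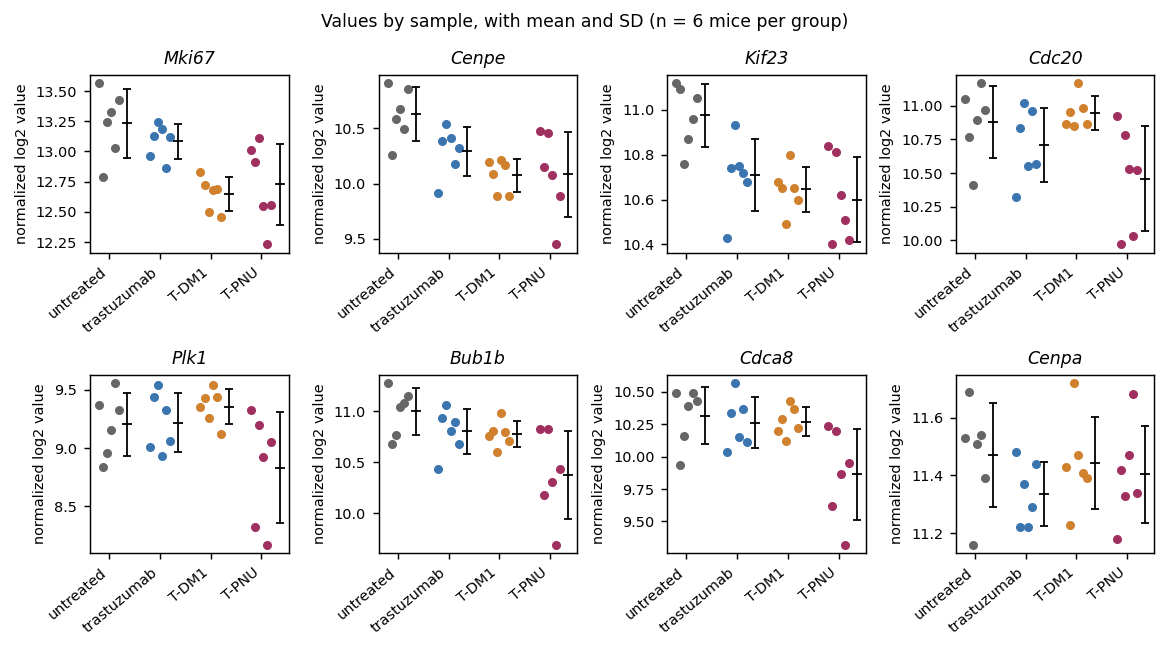
Normalized log2 values of 8 genes in each mouse (points), with the mean and SD of each group beside them (n = 6). All 6 T-DM1 values of Mki67 lie below the 6 trastuzumab values, and T-PNU samples C2 and H1 lie below all other samples for Cdc20 and Plk1.

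Differences between roles were not tested, and values ranged widely within them. By role, the median log2 fold change against untreated was -0.37 over the 5 centromere and kinetochore genes, -0.29 over the 6 kinesins, -0.24 over the 5 spindle and midzone genes, -0.22 over the 5 checkpoint and anaphase genes, -0.21 over the 7 cyclins and entry kinases, and -0.11 over the 4 genes of the chromosomal passenger complex. The spindle and midzone genes ran from -0.37 for Nusap1, which bundles microtubules near chromatin, to -0.20 for Tpx2, with Hmmr, Prc1 and Spag5 between, and none of them was called. Among the cyclins and kinases the values were -0.28 for Ccna2, -0.24 for Ccnb1, -0.22 for Cdk1, -0.21 for Pbk, -0.11 for Ccnb2 and -0.07 for Aurka, and Plk1 stood at 0.15. Of the kinesins not yet given, Kif11, the motor that pushes the spindle poles apart, was at -0.37, the chromosome-bound Kif4 at -0.26, Kif2c, which takes microtubules apart at their ends, at -0.11 and Kif20a at -0.07. Nuf2, the partner of Ndc80, was at -0.37 and Ndc80 at -0.33. In the passenger complex Incenp was at -0.19, Birc5 at -0.16, Aurkb at -0.06 and Cdca8 at -0.04. In the checkpoint group Ttk was at -0.33, Bub1 at -0.27, Bub1b at -0.22 and Ube2c, the ubiquitin-conjugating enzyme of the anaphase promoting complex, at -0.09. None of these was called over the 24 samples. Plk1 and Cdc20 (0.07) were the only 2 genes of the 35 above 0, and over the 20 samples they stood at 0.00 and -0.07.

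These differences ran with the base composition and length of the transcripts. The GC content of the longest transcript ran from 40.2% in Ect2 to 56.0% in Plk1, and its length from 1531 bases in Ccnb2 to 11130 in Cenpf. Across the 35 genes, which are not independent replicates, the log2 fold change of T-DM1 against untreated had a correlation of 0.69 with GC content and of -0.70 with log2 length. Over the 16930 genes with a transcript in the annotation these correlations were 0.49 and -0.03, so the trend with GC content was present in all genes. When the trend with GC content was removed from each sample, Mki67 alone of the 35 was called (log2 fold change -0.51 ± 0.133 SE, adjusted p 0.0448 by limma). The trend with length was not removed, and the longest transcript of Mki67 has 10061 bases. Cenpe was then at -0.44 with an adjusted p of 0.111 and Kif23 at -0.25 with 0.13, both by limma, and the median of the 35 was -0.16. For T-PNU against untreated the correlation with GC content was 0.54 over the 35 and 0.07 over all genes.

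**Figure D3:**
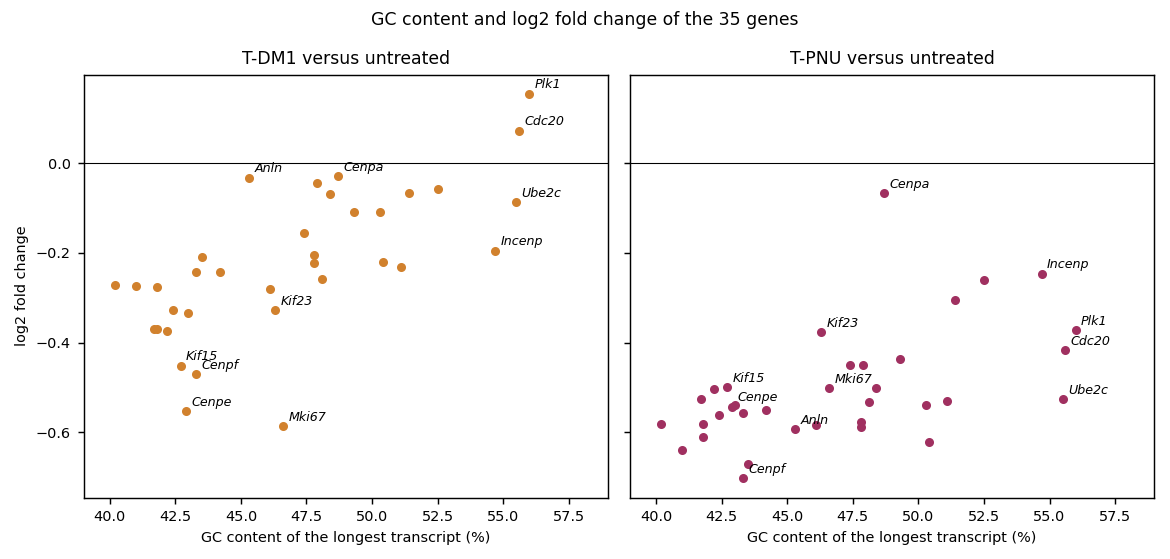
Log2 fold change against untreated mice (vertical axis) and GC content of the longest transcript in percent (horizontal axis) for the 35 genes, with T-DM1 on the left and T-PNU on the right. In the T-DM1 panel the points rise from Cenpe, Cenpf and Kif15 at low GC content to Cdc20 and Plk1 at the highest, while Mki67 lies well below the genes of like GC content.

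Against trastuzumab, the antibody without a payload, 0 of the 35 genes were called under T-DM1, where 0.435% of all genes were called lower. The median log2 fold change was -0.05, with 25 genes below 0 and 10 above. At an unadjusted p under 0.05 only Mki67 was lower, 1 of 35 (2.86%) against 7.35% of all genes, and over the 20 samples the number called was again 0, against 0.694%. Trastuzumab itself gave 0 calls against untreated mice, where 0.0118% of all genes were called lower. Its median was -0.18, and 3 of the 35 (8.57%) were lower at an unadjusted p under 0.05, against 3.46% of all genes. The largest of these was Cenpe at -0.34, followed by Ndc80, a kinetochore protein that grips microtubules, at -0.28 and Kif23 at -0.27.

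Under T-PNU all 35 genes had a lower mean than in untreated mice, with a median log2 fold change of -0.53 against 0.01 over all genes, but over the 24 samples 0 were called. The share of all genes called lower was 0.053%. At an unadjusted p under 0.05, 33 of the 35 (94.3%) were lower, against 15.1% of all genes, and the exceptions were Aurkb, the kinase of the chromosomal passenger complex, and Cenpa. Over the 20 samples 34 of the 35 (97.1%) were called lower, against 15.7% of all genes, and only Cenpa was not. The untreated samples left out there, B1 and C1, had the lowest untreated levels of the list, so this count is no independent check. None of the 35 had 6 T-PNU values below all 6 untreated values, where 0.671% of all genes had. The number called in the 24 samples rested on single libraries: it was 30 without untreated C1, 29 without T-PNU G1, 12 without T-PNU A2, 10 without trastuzumab E2 and 1 without trastuzumab G2. Without T-PNU C2 and the 4 samples outside the heatmaps it was 32. The share of all genes called was not counted with samples left out in this way, so these counts are descriptions only.

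By role, the median log2 fold change of T-PNU against untreated ran from -0.36 over the chromosomal passenger complex to -0.59 over the 2 cytokinesis genes. The lowest value of a gene was -0.70 ± 0.182 (SE) for Cenpf, with an adjusted p of 0.0638 by limma over the 24 samples and 0.00559 over the 20. Ndc80 came nearest to a call over the 24, at -0.56 ± 0.128 with an adjusted p of 0.0519 by limma. Pbk, a mitotic protein kinase, was at -0.67, the checkpoint kinase genes Bub1 and Bub1b at -0.64 and -0.62, and Ttk, which encodes the checkpoint kinase Mps1, at -0.54. Ect2, which activates RhoA at the cleavage furrow, and Anln, a scaffold of the contractile ring, were at -0.58 and -0.59. The kinesins Kif2c, Kif4, Kif11, Kif20a and Kif15 lay from -0.54 to -0.50 and Nuf2 at -0.53. Nearer to 0 lay Cdca8 and Birc5 at -0.45, Ccnb2 at -0.44, Cdc20 at -0.42, the kinesin Kif23 at -0.38, Plk1 at -0.37, Aurka at -0.31, Aurkb at -0.26, Incenp, the scaffold of the passenger complex, at -0.25 and Cenpa at -0.07.

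The values of 5 further genes, each from another role, show the shape of the T-PNU group. Cdk1, the kinase that drives mitotic entry, ran from 11.4 through 11.68 to 12.03 in untreated mice, from 10.94 through 11.52 to 11.9 under trastuzumab, from 11.16 through 11.51 to 11.61 under T-DM1 and from 10.4 through 11.15 to 11.65 under T-PNU. Tpx2 ran from 11.25 through 11.55 to 11.78, from 10.78 through 11.38 to 11.61, from 11.11 through 11.33 to 11.45 and from 10.14 through 10.92 to 11.45 in the same order of groups. The highest T-PNU values, in G1, reached into the untreated range in both genes, and the lowest, in C2, were the lowest of all 24. Kif20a, a kinesin of the midzone, ran from 11.1 through 11.49 to 11.61, from 10.65 through 11.25 to 11.46, from 11.06 through 11.37 to 11.5 and from 10.17 through 10.93 to 11.46. Anln ran from 11.1 through 11.78 to 12.1, from 10.88 through 11.73 to 11.87, from 11.46 through 11.61 to 11.98 and from 10.03 through 11.18 to 11.81, and had the widest T-PNU spread of these 4 (SD 0.653). Incenp ran from 10.54 through 11.02 to 11.13, from 10.78 through 10.88 to 11.1, from 10.59 through 10.82 to 10.87 and from 10.39 through 10.76 to 10.95, with all 4 groups overlapping.

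Against trastuzumab, T-PNU gave 0 calls over the 24 samples, as for 0% of all genes in this direction, and a median log2 fold change of -0.35. At an unadjusted p under 0.05, 16 of the 35 (45.7%) were lower, against 11.6% of all genes. Over the 20 samples 21 of the 35 (60%) were called lower, against 13.5% of all genes. The trastuzumab samples left out there, E2 and B3, had the lowest trastuzumab levels of the list. Pbk had the lowest value over the 24 samples, at -0.53 with an adjusted p of 0.178 by limma, and Cenpa alone was above 0, at 0.07.

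**Figure D4:**
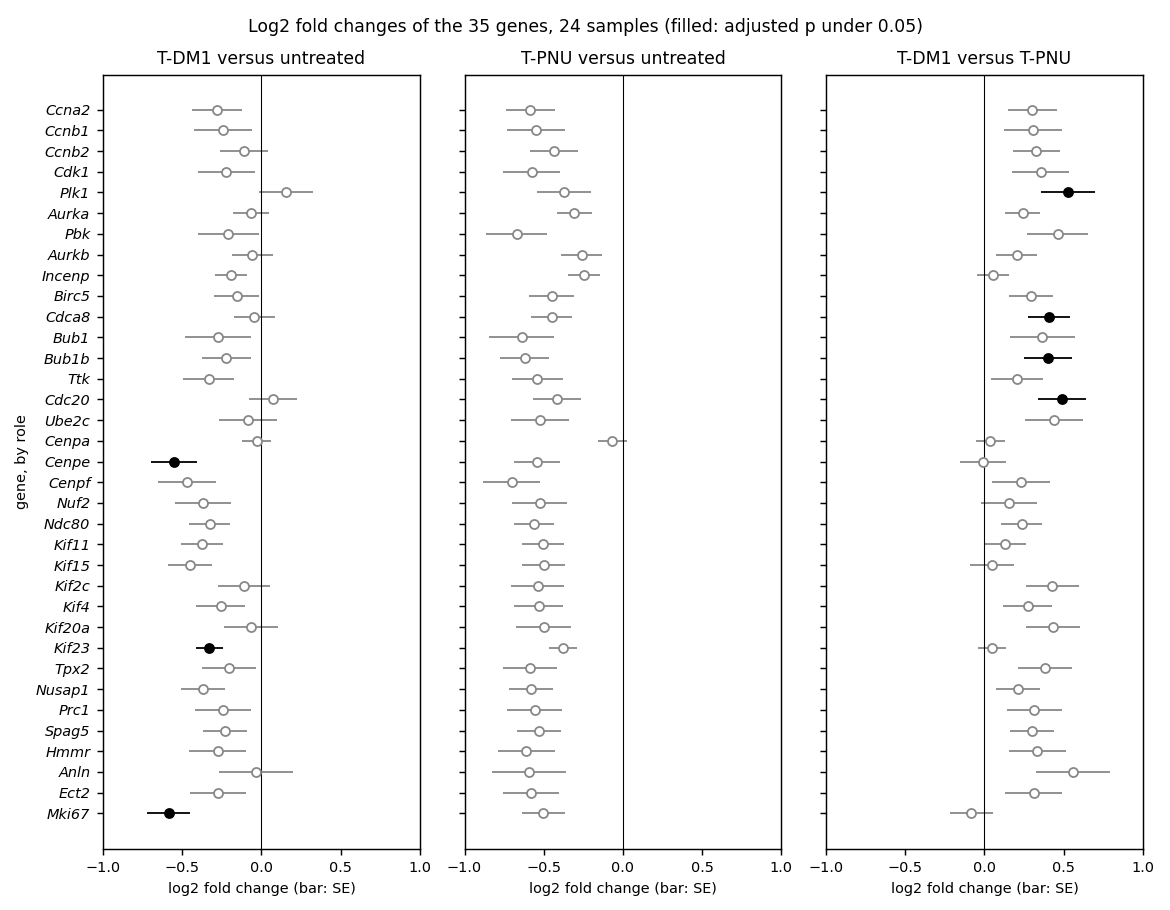
Log2 fold changes of the 35 genes over the 24 samples (points, with SE as bars; filled where the adjusted p is under 0.05), for T-DM1 and T-PNU against untreated mice and for T-DM1 against T-PNU. The first 2 panels share the untreated samples; T-PNU values lie between -0.70 and -0.07, and T-DM1 values between -0.59 and 0.15.

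The payload conjugates were compared directly at the doses used, which differ (15 and 1 mg/kg). T-DM1 was higher than T-PNU for 4 of the 35 genes (11.4%) and lower for 0, in a comparison where 17.4% of all genes were called higher, so the share of the list was not above that of all genes. The median log2 fold change of the 35 was 0.30, against -0.03 over all genes. The 4 were Cdc20, Plk1, Cdca8 and Bub1b. None of the 35 had 6 T-DM1 values above all 6 T-PNU values, where 7.73% of all genes had. Over the 20 samples 10 (28.6%) were called, against 20.1% of all genes, with Ccnb2, Kif20a, Kif2c, Pbk, Anln and Ube2c added. The count was 0 without T-DM1 F3, without T-PNU H1 or without T-PNU C2, 15 without T-PNU G1, 12 without T-PNU A2 and 6 without trastuzumab E2. With the trend in GC content removed 7 were called over the 24 samples, Bub1b and Cdca8 among them, while Cdc20 and Plk1 had an adjusted p of 0.0509 and 0.0514 by limma. Shares of all genes were not counted with a replicate left out or with the GC trend removed.

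Cdc20 activates the anaphase promoting complex (minus strand, chr4:118432901-118437352), and its promoter with both motifs is shown above. Its values ran from 10.41 through 10.93 to 11.17 in untreated mice, from 10.32 through 10.7 to 11.02 under trastuzumab, from 10.85 through 10.91 to 11.17 under T-DM1 and from 9.972 through 10.52 to 10.92 under T-PNU. T-DM1 mice stood in the upper part of the untreated range, and only T-PNU sample G1 reached into the T-DM1 range. The log2 fold change of T-DM1 against T-PNU was 0.49 ± 0.153 (SE) with an adjusted p of 0.021 by limma and an exact permutation p of 0.00866.

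Plk1 encodes Polo-like kinase 1, which acts at centrosomes, kinetochores and the midzone (plus strand, chr7:122159439-122169873). Its values ran from 8.838 through 9.246 to 9.557 in untreated mice, from 8.933 through 9.195 to 9.538 under trastuzumab, from 9.123 through 9.393 to 9.539 under T-DM1 and from 8.17 through 8.983 to 9.327 under T-PNU. The 2 lowest of all 24 values were those of T-PNU samples C2 and H1. The log2 fold change of T-DM1 against T-PNU was 0.53 ± 0.171 (SE) with an adjusted p of 0.0245 by limma.

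Cdca8 encodes borealin, which places Aurora B at the centromere with survivin, the product of Birc5 (Cdca8, minus strand, chr4:124918465-124939311). Its values ran from 9.943 through 10.41 to 10.49 in untreated mice, from 10.04 through 10.25 to 10.57 under trastuzumab, from 10.12 through 10.26 to 10.43 under T-DM1 and from 9.315 through 9.912 to 10.24 under T-PNU. Bub1b (plus strand, chr2:118598211-118641591) ran from 10.68 through 11.06 to 11.28, from 10.43 through 10.86 to 11.06, from 10.6 through 10.78 to 10.98 and from 9.688 through 10.37 to 10.83 in the same order. In both genes T-PNU samples G1 and A2 lay within the T-DM1 range and the other 4 below it. The log2 fold changes of T-DM1 against T-PNU were 0.41 ± 0.132 for Cdca8 and 0.40 ± 0.152 for Bub1b (SE), with adjusted p of 0.0254 and 0.0497 by limma. Mki67 (-0.08) and Cenpe (-0.01), both lower under T-DM1 than in untreated mice, were the genes below 0 in this comparison.

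Further genes of the cell cycle were counted in 3 lists. Of 83 further mitosis genes, 2 (2.41%) were called lower under T-DM1 than in untreated mice, against 2.15% of all genes, and 0 higher, with a median of -0.17. They were Smc2 (-0.52, adjusted p 0.00665 by limma), a condensin subunit, and Bora, an activator of Aurora A, while Psrc1, at the other end of the list, stood at 0.40 with an adjusted p of 0.24. Against T-PNU, 20 of the 83 (24.1%) were called higher under T-DM1, against 17.4% of all genes, and 0 lower. The 20 include Foxm1 (0.38) and Mybl2 (0.42), transcription factors of the late cell cycle. In the same comparison 7 of 30 DNA replication genes (23.3%) were called higher, against 17.4% of all genes, and 1 lower. Of 21 cell cycle inhibitors and DREAM complex subunits, 5 (23.8%) were called higher and 5 lower. The share of all genes called lower there was not counted. Of the 30 replication genes, 6 (20.0%) were called lower under T-DM1 than in untreated mice, against 2.15% of all genes. Another 1 was called higher, where the share of all genes was not counted. Pola1, a subunit of DNA polymerase alpha, had the lowest value (-0.36). Cdt1, which licenses replication origins, had the highest (0.54, adjusted p 0.00694 by limma). Of the 21 inhibitors and DREAM subunits, 2 (9.52%) were called lower in that comparison, against 2.15% of all genes, and 0 higher. They ran from -0.48 for Cdkn2b, which encodes p15, to 0.31 for Cdkn1a, which encodes p21 (adjusted p 0.104 by limma). T-PNU gave 0 calls against untreated mice in each of these 3 lists over the 24 samples, with 56 of the 83 mitosis genes, 23 of the 30 replication genes and 6 of the 21 inhibitors and DREAM subunits lower at an unadjusted p under 0.05, against 15.1% of all genes.

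Markers of cell types moved with the level of the 35 genes. Over the 24 samples the level of the 35 had a correlation of -0.85 with that of 12 T-cell markers, of -0.83 with that of 4 leukocyte markers and of 0.61 with that of 12 fibroblast and matrix genes, and within groups these were -0.85, -0.89 and 0.88. The points share their libraries, and no test is given. T-PNU sample C2, lowest for the 35, had the highest T-cell level (1.807) and the lowest matrix level (-1.326), and untreated A1, highest for the 35, had the lowest T-cell level (-1.498). Between groups, T-cell levels ran from -1.50 to 1.44 in untreated mice and from -0.36 to 1.81 under T-PNU, and matrix levels from -0.87 to 0.17 and from -1.33 to 0.02. None of the 12 T-cell markers was called for T-PNU against untreated, with 4 higher at an unadjusted p under 0.05, while of the 4 leukocyte markers Laptm5 was called higher. Ly6c2 and the keratin gene Krt14 were also called higher there. Of the 8 epithelial genes, 4 were higher and 1 lower at an unadjusted p under 0.05. They ran from Krt5 (1.38, adjusted p 0.0519 by limma) to Krt8 (-0.52, adjusted p 0.153 by limma). At an unadjusted p under 0.05, 6 of 6 NK-cell and 4 of 6 endothelial genes were higher under T-PNU. Of 12 matrix genes 5 were lower, against 15.1% of all genes, and 2 higher. Under T-DM1 the matrix level ran from 0.46 to 0.72, above every untreated value but overlapping with trastuzumab (-0.23 to 0.49). Of the 12 matrix genes, 5 were called higher than in untreated mice: Col1a1 (1.32, adjusted p 0.0122 by limma), Col3a1, Col5a1, Dcn and Thbs1. Postn had the lowest value of the list (0.26, adjusted p 0.555 by limma). Against trastuzumab 0 of the 12 were called under T-DM1, with 7 higher at an unadjusted p under 0.05. Against T-PNU, 10 of the 12 matrix genes were called higher under T-DM1, against 17.4% of all genes. In that comparison 3 of 4 leukocyte, 5 of 6 NK-cell, 7 of 12 macrophage, 5 of 6 endothelial, 2 of 10 neutrophil and 2 of 8 dendritic genes were called lower, and of 8 epithelial genes 3 were called lower and Krt8 higher (0.96). No T-cell, B-cell or erythroid gene was called there, and at an unadjusted p under 0.05, 5 T-cell genes were lower, 0 B-cell genes differed and 1 erythroid gene was higher. Where no share of all genes stands beside a count of markers, here and in the next paragraph, the count is a description only. It is then not set against all genes. The part of these cell types in the values of the 35 was not tested.

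**Figure D5:**
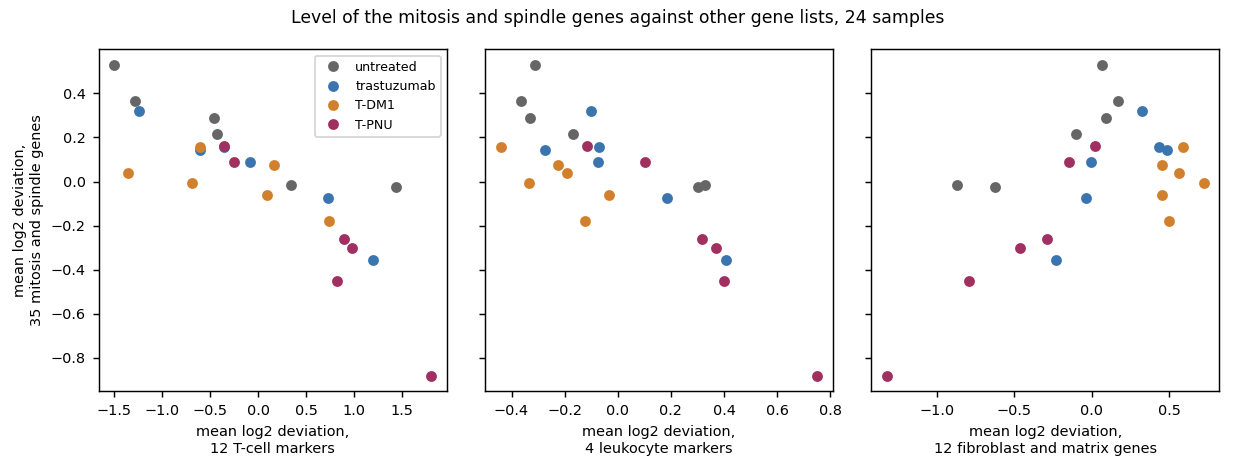
Level of the 35 mitosis and spindle genes (vertical axis, mean log2 difference from the 24-sample averages) against the level of 12 T-cell markers, 4 leukocyte markers and 12 fibroblast and matrix genes in the 24 samples, coloured by group. Points fall from the upper left to the lower right in the first 2 panels, with T-PNU sample C2 at the lower end. The 6 T-DM1 samples lie at the right of the matrix panel, with trastuzumab sample F2 among them.

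The remaining marker lists were described in the same way. The correlation was -0.71 for 8 B-cell, -0.67 for 8 dendritic cell, -0.61 for 6 NK-cell, -0.43 for 10 neutrophil, -0.36 for 6 endothelial, -0.33 for 8 epithelial, -0.19 for 4 erythroid and 0.03 for 12 macrophage and monocyte genes, again over the 24 samples and with no test. Within groups these were, in the same order, -0.72, -0.7, -0.49, -0.3, -0.1, 0.03, -0.19 and 0.26. Macrophage and monocyte genes were lower under T-DM1 than in untreated mice for 11 of 12, with C1qb (-0.75) called lower and Ly6c2 (1.05) called higher. Mmp9 (1.10) was called higher among the neutrophil genes, with Cxcr2 (-0.31) at the other end, and Alas2 among the erythroid genes, which ran from 0.84 for Hbb-b2 to 1.18 for Hba-a1. None of the leukocyte, T-cell, B-cell, NK-cell, dendritic, epithelial or endothelial genes was called for T-DM1 against untreated. At an unadjusted p under 0.05, 0 of the leukocyte, T-cell, B-cell and NK-cell genes, 2 dendritic, 1 epithelial and 2 endothelial genes differed. These lists ran from -0.34 for Ptprc to 0.17 for Laptm5, from -0.22 for Cd28 to 0.21 for Cd4, from -0.21 for Cr2 to 0.20 for Cd79a, and from -0.19 for Klrb1c to 0.20 for Prf1. Dendritic genes ran from -0.77 for Xcr1 to 0.38 for Ccr7, epithelial genes from -0.28 for Cdh1 to 0.47 for Krt19, and endothelial genes from -0.53 for Emcn to 0.69 for Kdr.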

How the data were processed

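RNA of bead-enriched CD45+ tumor cells was sequenced with a stranded poly(A) kit, 1 library per mouse and 6 mice in each of 4 groups. The authors aligned the reads with STAR 2.4.2a to mm10, counted them by strand and gene with featureCounts of Subread 1.5.0, removed genes with an average count under 5 and compared groups with DESeq2. The deposited values are log2 values normalized for library size by the authors, for 16996 genes, 14579 of them with a symbol, from 1.13 to 19.7 with sample medians of 8.73 to 8.87. The transformation is not given in the sources used here, counts were not recovered, the depth per sample is unknown, and a stabilizing transformation, if one was used, shrinks the fold changes of low genes. No counting interval is given.

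The members, the gene lists and the comparisons were chosen with earlier results of these data known. The promoters printed were also chosen after the values were seen. Groups came from the labels. All genes and 24 samples entered 1 linear model of the 4 groups (limma 3.58.1, R 4.3.3, moderated with a mean-variance trend), with 20 residual degrees of freedom, no covariate and two-sided p-values adjusted by Benjamini-Hochberg. The exact permutation p of a gene is two-sided and counts all 924 splits. The procedure was tested on simulated data. All 35 genes are named, with values by group (lowest, median, highest) for those called in a T-DM1 comparison against untreated or T-PNU and for the one with the highest mean in each role. Of the other lists the ends of the T-DM1 against untreated range are named. Bora, Foxm1, Mybl2, Krt5, Krt8, Krt14 and the called matrix and erythroid genes were added after their values were seen.

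Positions, overlaps, transcript lengths and GC content came from GENCODE M21 on GRCm38, which is mm10, where 99.6% of the genes were found. No member shared exon bases with a gene on the same strand. Promoter windows came from RefSeq, and the last bases of 30 of 31 windows matched a transcript of the gene. Alternatives were the 20 samples of the heatmaps, quantile normalization, median centring, genes above the median level, fits of 2 groups, sample weights, no variance trend, a false discovery rate of 0.01 with a fold of 2, and each replicate left out. The 19 samples without T-PNU C2 and the removal of GC trends (lowess, span 0.3) were chosen after seeing the data. Plots were made in matplotlib 3.10.9 under Python 3.11.15.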

Additional observations from a re-analysis of the deposited data

Results flagged for a closer look

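Among 144 sets of 6 values, each 1 gene of the 35 or the level of the list in 1 group, 1 held a sample far from the others. It was Incenp in untreated mice, where sample B1 had a normalized log2 value of 10.54 and the other 5 lay between 11.0 and 11.13. The gap took up 0.789 of the whole range, which is past the limit of Dixon's test for 6 values. Chance gives such a sample in about 1 in 20 groups.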

How the results depend on the processing

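No paired analysis was possible because each sample carries a code of its own and the groups share no replicate number. The number of the 35 genes called for T-DM1 against untreated was 3; it was 0 at a false discovery rate of 0.01 with a fold of 2, 17 with sample weights, 9 over the 19 samples, 1 with the GC trend removed over 24 or over 20 samples, and 1 to 4 with 1 replicate left out. Against trastuzumab it was 0, and 1 in fits of 2 groups and with sample weights; the median ran from -0.14 to 0.01 with 1 replicate left out, and was above 0 only without trastuzumab G2. For T-DM1 against T-PNU it was 4; it was 0 under the strict limits, 10 over the 20 samples, 2 with median centring, 13 with sample weights, 7 and 17 with the GC trend removed over 24 and 20 samples, and 0 to 15 with 1 replicate left out. For T-PNU against untreated it was 0; it was 34 over the 20 samples, 4 among genes above the median level, 34 with sample weights, 32 over the 19 samples, 1 and 34 with the GC trend removed over 24 and 20 samples, and 0 to 30 with 1 replicate left out. Against trastuzumab it was 0 for T-PNU, 21 over the 20 samples, 12 with sample weights, 12 over the 19 samples and 26 with the GC trend removed over the 20. Trastuzumab against untreated gave 0 throughout. Shares of all genes called were counted only for the main fits of the 24 and the 20 samples. Counts under every other setting, here and above, describe the list and are not set against all genes. The cause of these moves was not tested.

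Some genes near 0 changed direction. For T-DM1 against untreated, Cdc20 was at -0.07 over the 20 and the 19 samples, -0.06 and -0.18 with the GC trend removed over 24 and 20 samples, and -0.02 to 0.13 with 1 replicate left out. Plk1 was at -0.12 with the GC trend removed over the 20 samples, where over the 24 Cenpa, Anln and Cdca8 were at 0.01, 0.06 and 0.01; with 1 replicate left out Cenpa ran from -0.09 to 0.01 and Anln from -0.15 to 0.05. For T-DM1 against T-PNU, median centring put Cenpa at -0.02 and Kif23, Kif15 and Incenp at -0.01. Kif15 was at -0.01 with quantile normalization and at -0.07 over the 19 samples, and Incenp at -0.01 over the 19 and -0.02 with the GC trend removed over 24 or 20. Cenpe was at 0.01 with sample weights and at 0.08 with the GC trend removed over 24 or 20. With 1 replicate left out, Cenpa ran from -0.02 to 0.09, Cenpe from -0.14 to 0.07, Kif15 from -0.07 to 0.12 and Incenp from -0.01 to 0.1. None of these genes was called over the 24 samples in the comparison in which it changed direction. Depth is unknown, so no limit from it can be given.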
